A study of Mus musculus with 21 samples.

Results

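Solute carriers are membrane proteins that move nutrients, ions, metals and metabolites across the cell surface and the membranes of organelles. Their genes were read here in bone marrow progenitors as the rows of the expression table whose symbol begins with Slc, a family number, the letter a and a member number, and that reached 1 RPKM in at least 3 of 21 libraries. RPKM are read counts scaled for the length of the transcript and the size of the library. The rule took 178 of 11628 genes, from 43 numbered families, and left out 4 of the 182 symbols that fit the pattern. It uses no difference between groups. Solute carriers with another letter after the family number, such as the Slc35b genes, and the Slco genes are outside it. Of the 178, 5 carry an Slc symbol but are not transporters, among them Slc9a3r1, a scaffold protein that binds sodium-proton exchangers, so 173 are carriers.

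The mutant mice were homozygous for a mutation of Etv6 written as h.P214L in the series' description and as ETV6 mt/mt in the sample labels; the controls were wild type. Etv6 encodes a repressor of the ETS family of DNA-binding proteins, and RPKM do not show the substitution, so they do not check the genotype. Bone marrow cells were sorted by flow cytometry as lineage-negative from mice 10 or 12 weeks old of either sex. Mutant and wild-type haematopoietic stem cells (HSC) were cKit+ Sca1+ FLK2-neg CD150+ CD38-neg, mutant and wild-type multipotent progenitors (MPP4) were cKit+ Sca1+ FLK2+, and mutant and wild-type common lymphoid progenitors (CLP) were IL7+Flk2+ with low cKit and Sca1. The description counts 4 mutant and 3 wild-type mice, and as many libraries stand for each population. Summed over a list of 7 stem cell markers, levels were 554 to 585 RPKM in mutant and 508 to 599 RPKM in wild-type HSC, against at most 107 RPKM in any MPP4 library and at most 8.76 RPKM in any CLP library. These are bulk libraries, in which fewer cells of a type and less RNA per cell cannot be told apart.

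In blood formation, solute carriers set what a cell can import and export as it leaves the stem cell state. Facilitative glucose carriers and monocarboxylate carriers serve glycolysis, mitochondrial carriers of the Slc25 family link the cytosol with respiration, and zinc, iron and haem carriers handle metals. Nucleoside and folate carriers feed DNA synthesis, and fatty acid transport proteins of the Slc27 family couple the uptake of long-chain fatty acids to their activation with coenzyme A.

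Promoter windows are shown for members that moved between populations and that have 1 window in the RefSeq promoter table (build GRCm38.p6). They are the largest fall, Slc18a2, and the largest rise, Slc16a11, of the step from HSC to MPP4. With them are 4 other members named below for a step that hold a match to an ETS motif. The choice left out windows of 1 chromosome. The motif was searched as CNGGAAGT on both strands, and capitals mark the match, which reads as its reverse complement where it lies on the other strand. Each sequence is the 250 bases before the transcription start, 5′ to 3′ on the gene's strand. The windows are chr19:59260628-59260877 on the plus strand for Slc18a2, chr11:70213660-70213909 on the plus strand for Slc16a11, chr9:94669642-94669891 on the plus strand for Slc9a9, chr10:70245026-70245275 on the plus strand for Slc16a9, chr7:143473539-143473788 on the plus strand for Slc22a18 and chr9:37255739-37255988 on the minus strand for Slc37a2.
Slc18a2: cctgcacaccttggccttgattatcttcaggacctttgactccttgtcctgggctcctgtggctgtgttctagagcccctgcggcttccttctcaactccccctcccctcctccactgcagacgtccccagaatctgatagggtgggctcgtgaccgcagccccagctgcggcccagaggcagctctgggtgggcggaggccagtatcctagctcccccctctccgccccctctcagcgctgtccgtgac
Slc16a11: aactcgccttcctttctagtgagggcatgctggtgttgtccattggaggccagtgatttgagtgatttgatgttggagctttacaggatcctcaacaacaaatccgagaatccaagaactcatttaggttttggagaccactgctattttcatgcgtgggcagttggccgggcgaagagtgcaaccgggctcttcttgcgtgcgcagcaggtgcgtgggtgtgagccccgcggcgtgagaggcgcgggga
Slc9a9: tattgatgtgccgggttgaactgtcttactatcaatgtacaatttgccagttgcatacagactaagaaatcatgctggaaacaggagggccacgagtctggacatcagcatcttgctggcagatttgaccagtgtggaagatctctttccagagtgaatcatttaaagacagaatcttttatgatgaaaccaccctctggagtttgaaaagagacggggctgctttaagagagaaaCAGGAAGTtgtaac
Slc16a9: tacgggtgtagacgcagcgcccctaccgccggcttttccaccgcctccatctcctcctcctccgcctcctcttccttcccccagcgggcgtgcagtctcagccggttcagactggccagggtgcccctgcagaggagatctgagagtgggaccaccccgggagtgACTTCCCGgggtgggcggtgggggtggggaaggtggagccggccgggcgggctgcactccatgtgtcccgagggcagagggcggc
Slc22a18: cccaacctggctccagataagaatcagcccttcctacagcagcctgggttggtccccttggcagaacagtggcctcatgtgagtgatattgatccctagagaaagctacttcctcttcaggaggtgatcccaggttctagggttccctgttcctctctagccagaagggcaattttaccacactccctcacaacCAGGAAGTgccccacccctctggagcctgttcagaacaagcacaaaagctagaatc
Slc37a2: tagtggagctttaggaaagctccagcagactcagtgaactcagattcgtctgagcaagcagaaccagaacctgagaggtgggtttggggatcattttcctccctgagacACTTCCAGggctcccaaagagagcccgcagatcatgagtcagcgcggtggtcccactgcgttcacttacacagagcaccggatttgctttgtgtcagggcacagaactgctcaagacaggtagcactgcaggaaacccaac
The match began 14 bases before the start in Slc9a9, 56 bases before it in Slc22a18, 85 bases before it in Slc16a9 and 141 bases before it in Slc37a2. Slc18a2 and Slc16a11 had 0 matches in this window. Among the 132 members with an entry in the table, 17 (12.9%) had a match, against 1211 of 9291 tested genes with an entry and 2329 of 27025 genes of the whole table (8.62%). The E-box CACGTG, searched in the same windows, was present in 23 of 132 members (17.4%), against 10.1% of tested genes and 6.86% of all genes. The median GC content of the windows was 61.2% for members and 59.6% for tested genes. These matches are descriptions of sequence, not of binding.

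The 178 members held 0.915% to 1.07% of the RPKM of a library, 3367 to 3626 RPKM in all, and 155 to 171 of them reached 1 RPKM. The mean over the 6 groups had a median of 8.58 RPKM over members, against 13.5 RPKM over all genes that passed the same level rule. In all, 140 members reached 1 RPKM in all 21 libraries, and 79 had a mean of at least 10 RPKM. The group mean was at least 1 RPKM in all 6 groups for 151 members. The other 27 passed the level rule without that, so a difference between groups is partly built into their choice. Just inside the rule were Slc4a3, an anion exchanger, and Slc7a11, the cystine-glutamate exchanger, with 5 libraries at 1 RPKM each, and Slc9a5, a sodium-proton exchanger, with 6. Outside it were Slc1a2 with 0 libraries and Slc1a3, Slc8a1 and Slc38a6 with 1 each.

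By level, mitochondrial carriers led. Slc25a5, the ADP/ATP translocase that exports ATP from mitochondria, was the most abundant member and alone made up 8.68% to 15.6% of the members' RPKM. It stood at 439.9, 458, 416 and 467 RPKM in mutant MPP4, against 336, 351, 342 and 334 RPKM in mutant HSC. In wild-type mice it stood at 546, 503 and 506 RPKM in wild-type MPP4, against 415, 393 and 305 RPKM in wild-type HSC. Every MPP4 library was above every HSC library of its genotype, and the difference in log2(RPKM + 1) was 0.38 ± 0.0788 (SE) in mutant mice and 0.49 ± 0.0910 in wild-type mice (limma, Benjamini-Hochberg adjusted p = 5.92e-04 and 2.15e-04).
After it came Slc44a2, a choline transporter-like protein, with a mean of 131 RPKM over the 6 groups, and Slc50a1, a sugar carrier of the SWEET family, with 120.2 RPKM. The 10 highest also held Slc25a1, the mitochondrial citrate carrier, Slc25a39, which carries glutathione into mitochondria, Slc25a11, the oxoglutarate-malate carrier, and Slc25a4, a second ADP/ATP translocase. The other 3 were Slc38a2 and Slc1a5, which import neutral amino acids and glutamine, and Slc9a3r1. Slc25a39 was among the steadiest members, with its highest population mean 1.07 times the lowest in mutant and 1.02 times in wild-type mice.

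Across the 3 populations, more members peaked in HSC than in either progenitor. Of 178 members, 93 had their highest mean in mutant HSC, 36 in mutant MPP4 and 49 in mutant CLP; in wild-type mice these counts were 94, 30 and 54. The highest population was the same in both genotypes for 132 members. The highest mean was at least 4 times the lowest for 26 members in mutant and 29 in wild-type mice, and under 1.25 times the lowest for 43 and 46 members in the same order of genotypes. Some members with such large ratios, among them Slc16a11 and Slc27a6, had group means under 1 RPKM, so their ratio is partly built into the level rule. These counts were not made over all tested genes, of which 16.1% rose and 23.3% fell from wild-type HSC to MPP4, so they do not set the members apart.

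**Figure D1:**
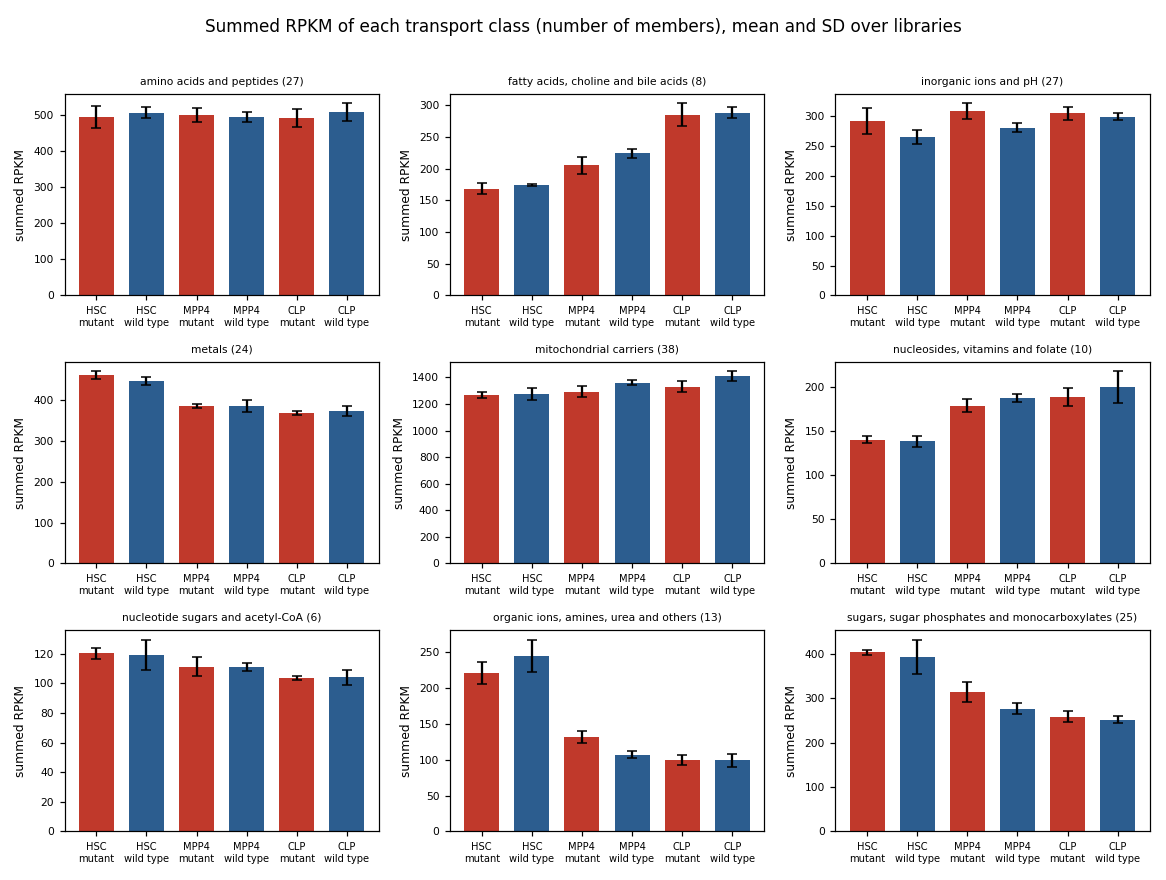
Summed RPKM (vertical axis, from 0) of the members of each of 9 transport classes in mutant (red) and wild-type (blue) HSC, MPP4 and CLP; bars are means and error bars SD over 4 mutant or 3 wild-type libraries. Fatty acid, choline and bile acid carriers sum to 285 and 288 RPKM in CLP, against 168 and 174 RPKM in HSC (mutant, then wild type), while organic ion and sugar carriers are highest in HSC.

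The step from HSC to MPP4 in wild-type mice was tested with limma on log2(RPKM + 1), fitted to all 11496 genes that passed the level rule and adjusted over them by Benjamini-Hochberg, with a call at an adjusted p under 0.05. It called 76 of 178 members, where 39.3% of all tested genes were called. Of these, 29 were higher in MPP4, where 16.1% of tested genes were, and 47 were lower, where 23.3% were. The members' median difference was -0.11 and that of all tested genes -0.06 on the log2 scale.

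Large falls were in carriers of amines, fatty acids and calcium. Slc18a2, the vesicular monoamine transporter that loads amines into secretory vesicles, stood at 3.77, 3.65 and 3.27 RPKM in wild-type MPP4, against 106, 83.1 and 94.4 RPKM in wild-type HSC. The groups lay far apart, and the difference was -4.38 ± 0.15 on the log2 scale (adjusted p = 4.02e-14). In mutant mice Slc18a2 stood at 4.71, 4.47, 5.56 and 3.34 RPKM in mutant MPP4, against 73.3, 68.5, 108 and 81.6 RPKM in mutant HSC, again without overlap, with a log2 difference of -3.92. Its close relative Slc18a1, which does the same task in neuroendocrine cells, ran the other way. It stood at 5.99, 6.81 and 9.77 RPKM in wild-type MPP4, against 0.713, 0.758 and 0.174 RPKM in wild-type HSC, a log2 difference of 2.46 ± 0.23 (adjusted p = 3.82e-08).

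Slc16a9, a protein of the monocarboxylate family that in humans is linked to carnitine export, stood at 1.18, 1.34 and 0.990 RPKM in wild-type MPP4, against 8.55, 6.49 and 10.9 RPKM in wild-type HSC. It fell by 2.13 on the log2 scale, with no overlap of the groups. Slc16a11, another member of that family, was the largest rise of the step, at 16.9, 15.5 and 14.4 RPKM in wild-type MPP4, against 0.921, 0.940 and 0.686 RPKM in wild-type HSC. Every MPP4 library was more than 10 RPKM and every HSC library under 1 RPKM, a log2 difference of 3.17 ± 0.27 (adjusted p = 1.09e-08).
In the Slc16 family as a whole, 3 of 10 members rose and 2 fell at this step.

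Both major glucose carriers fell. Slc2a3, the high-affinity glucose transporter GLUT3, stood at 14.03, 14.1 and 11.4 RPKM in wild-type MPP4, against 32.96, 42.2 and 45.7 RPKM in wild-type HSC, with no overlap and a log2 difference of -1.54 (adjusted p = 2.61e-08). Slc2a1, the widespread glucose transporter GLUT1, averaged 18.8 ± 1.93 RPKM in wild-type MPP4 and 29.2 ± 5.02 RPKM in wild-type HSC (SD, n = 3 each) and also fell (-0.61, adjusted p = 0.00131). Slc50a1, the sugar carrier, averaged 101 ± 5.25 RPKM in wild-type MPP4 and 162 ± 33.9 RPKM in wild-type HSC and fell by 0.66 on the log2 scale. Slc2a6, a glucose transporter family protein of lysosomal membranes, went the other way at a low level, with 1.09 ± 0.199 RPKM in wild-type MPP4 and 0.278 ± 0.413 RPKM in wild-type HSC (log2 difference 0.75, adjusted p = 0.00471). Summed, the 25 members of the sugar, sugar phosphate and monocarboxylate class, 24 of them carriers, stood at 277 ± 12.4 RPKM in wild-type MPP4 and 393 ± 39.1 RPKM in wild-type HSC, with 4 members called higher and 7 lower.

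Metal carriers were lower in sum, which followed Slc48a1 and not the class as a whole. The 24 of them gave 385 ± 14.5 RPKM in wild-type MPP4 and 448 ± 9.81 RPKM in wild-type HSC, with 3 called higher and 6 lower. Slc48a1, which moves haem out of endosomes and lysosomes, fell by more than the class did. It stood at 55.4, 48.1 and 49.7 RPKM in wild-type MPP4, against 125, 125 and 144 RPKM in wild-type HSC, so that every HSC library held more than 2 times any MPP4 library (log2 difference -1.34 ± 0.0844, adjusted p = 1.52e-10). The zinc importer Slc39a6 rose instead, with 37.8 ± 2.20 RPKM in wild-type MPP4 and 17.1 ± 2.37 RPKM in wild-type HSC (1.11, adjusted p = 4.51e-08), as did Slc30a5, a zinc carrier of the early secretory pathway, with 54.1 ± 1.49 RPKM in wild-type MPP4 and 41.2 ± 3.92 RPKM in wild-type HSC (0.39).
Slc39a10, another zinc importer, averaged 21.2 ± 2.22 RPKM in wild-type MPP4 and 16.8 ± 4.66 RPKM in wild-type HSC and was not called (adjusted p = 0.0813). Slc11a2, the divalent metal carrier that imports iron, averaged 4.81 ± 0.423 RPKM in wild-type MPP4 and 5.84 ± 1.68 RPKM in wild-type HSC and was not called (adjusted p = 0.335).

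A pair of sodium-proton exchangers of organelles rose. Slc9a9, which sets the pH of endosomes, stood at 15.3, 14.7 and 19.02 RPKM in wild-type MPP4, against 1.44, 1.76 and 0.627 RPKM in wild-type HSC. Slc9a7, of the trans-Golgi network, stood at 8.40, 8.60 and 9.77 RPKM in wild-type MPP4, against 1.998, 2.83 and 2.26 RPKM in wild-type HSC. Neither pair of groups overlapped, and the log2 differences were 2.96 ± 0.19 and 1.57 ± 0.11 (adjusted p = 2.01e-10 and 9.82e-10). In the Slc9 family, the scaffold protein Slc9a3r1 included, 3 of 9 members rose and 2 fell. Among the 27 inorganic ion and pH members, 24 of them carriers, 7 rose and 5 fell. Slc24a5, a potassium-dependent sodium-calcium exchanger known from pigment cells, was among the falls, at 3.11, 2.91 and 2.27 RPKM in wild-type MPP4, against 18.6, 20.3 and 17.3 RPKM in wild-type HSC (log2 difference -2.39). Its annotated exons share 36.5% of their bases with Myef2 on the opposite strand, and the kit does not mark strand, so reads of the pair cannot be told apart.

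The nucleoside carriers Slc29a1 and Slc28a2 rose, while a folate and a riboflavin carrier fell. Slc29a1, the equilibrative nucleoside transporter, averaged 92.4 ± 3.92 RPKM in wild-type MPP4 and 40.5 ± 7.04 RPKM in wild-type HSC (1.18, adjusted p = 2.57e-07). Slc28a2, a sodium-coupled purine nucleoside carrier, averaged 22.9 ± 1.23 RPKM in wild-type MPP4 and 15.2 ± 3.44 RPKM in wild-type HSC (0.59). Slc29a2, another nucleoside carrier, had its highest wild-type mean in HSC, at 1.71 times its lowest. Slc19a1, the reduced folate carrier, averaged 24.1 ± 0.939 RPKM in wild-type MPP4 and 30.1 ± 1.51 RPKM in wild-type HSC (-0.31, adjusted p = 0.0315). Slc52a3, a riboflavin carrier, stood at 1.49, 0.651 and 0.547 RPKM in wild-type MPP4, against 5.50, 4.59 and 6.29 RPKM in wild-type HSC, and fell by 1.79 on the log2 scale without overlap. The class of 10 had 3 members higher and 4 lower, and its sum was 188 ± 4.30 RPKM in wild-type MPP4 and 138 ± 6.42 RPKM in wild-type HSC.

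Amino acid carriers moved in both directions and their sums differed by less than 1 SD, at 495 ± 15.1 RPKM in wild-type MPP4 and 506 ± 14.8 RPKM in wild-type HSC. Of 27 members, which are grouped by family number and of which 26 are carriers, 4 rose and 7 fell. Slc7a8, a carrier of large neutral amino acids, stood at 1.35, 1.78 and 1.37 RPKM in wild-type MPP4, against 10.2, 7.997 and 11.02 RPKM in wild-type HSC, and fell without overlap (log2 difference -2.10 ± 0.34). Slc43a2, which carries the same kind of amino acid, rose, at 17.2, 15.1 and 18.3 RPKM in wild-type MPP4, against 5.88, 4.73 and 7.51 RPKM in wild-type HSC (1.36, adjusted p = 1.38e-07). The pair Slc7a5 and Slc3a2, the light and heavy chains of the main leucine transporter, split. Slc7a5 averaged 50.5 ± 7.31 RPKM in wild-type MPP4 and 34.1 ± 9.96 RPKM in wild-type HSC and rose (0.59, adjusted p = 0.0491), and Slc3a2 averaged 39.4 ± 3.17 RPKM in wild-type MPP4 and 50.4 ± 1.35 RPKM in wild-type HSC and fell (-0.35, adjusted p = 0.00207).
Slc7a11, Slc6a6, the taurine carrier, Slc38a2 and Slc1a5 were not called at this step, with log2 differences of 0.12, -0.06, -0.04 and -0.11. The class of organic ion, amine, urea and other carriers had 8 of 13 members lower and 1 higher, a median of -0.68, against -0.06 over all tested genes. Its sum was 107 ± 5.08 RPKM in wild-type MPP4 and 244 ± 22.8 RPKM in wild-type HSC, and Slc18a2 alone accounted for 94.6 RPKM of that mean in HSC.

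**Figure D2:**
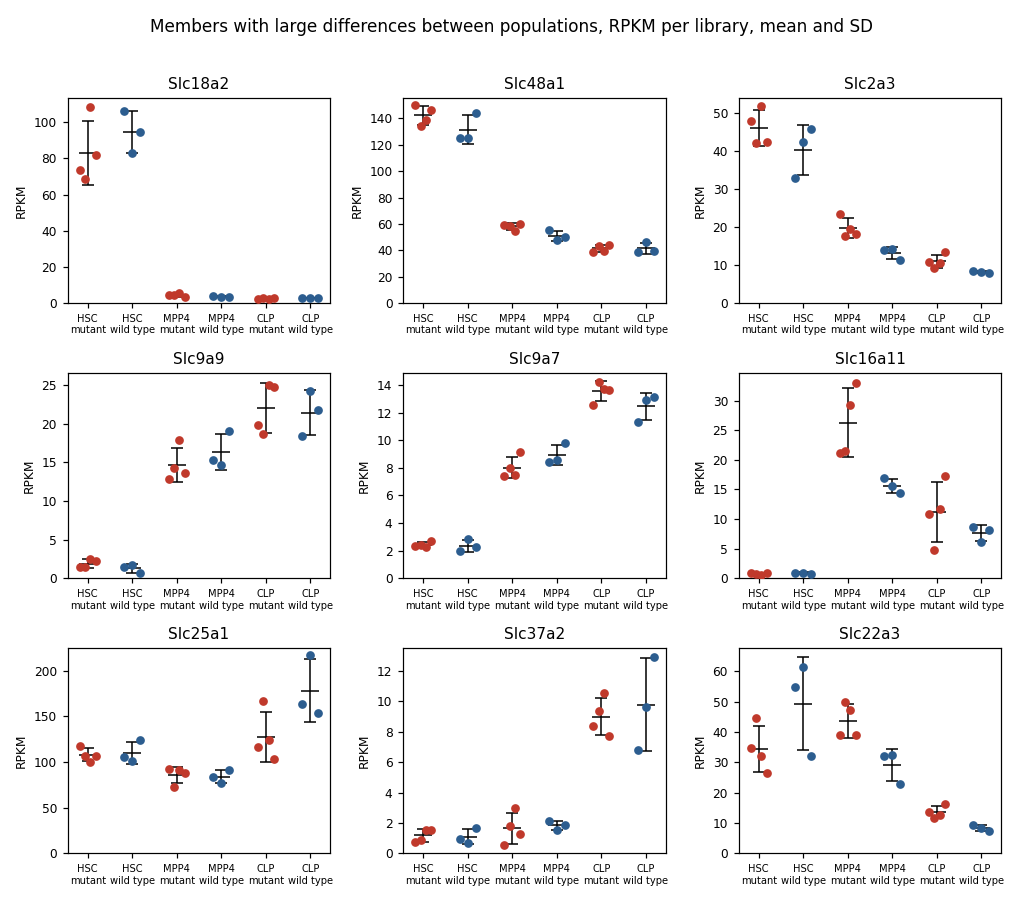
RPKM (vertical axes, from 0) of 9 members in each library of mutant (red) and wild-type (blue) HSC, MPP4 and CLP, with mean and SD over 4 mutant or 3 wild-type libraries. Slc18a2, Slc48a1 and Slc2a3 are highest in HSC, Slc9a9 and Slc9a7 lowest there, Slc16a11 is above 14 RPKM in every MPP4 library, Slc25a1 and Slc37a2 are highest in CLP, and Slc22a3 is lowest in CLP, at no more than 16.3 RPKM.

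The step from MPP4 to CLP in wild-type mice called 30 members, 16 higher and 14 lower, where 13.1% of tested genes were called, 4.77% higher and 8.38% lower (limma, Benjamini-Hochberg). This step shares its MPP4 libraries with the one before. Its largest rises were in carriers of sugar phosphates and fatty acids. Slc37a2, a glucose-6-phosphate carrier of the endoplasmic reticulum, stood at 6.79, 9.64 and 12.9 RPKM in wild-type CLP, against 2.12, 1.54 and 1.85 RPKM in wild-type MPP4. All CLP libraries lay above all MPP4 libraries, with a log2 difference of 1.89 ± 0.27 (adjusted p = 5.14e-05). Slc37a3, a lysosomal protein of the same family, averaged 2.90 ± 0.127 RPKM in wild-type CLP and 1.40 ± 0.669 RPKM in wild-type MPP4 and rose by 0.73, a call that was lost without wild-type MPP4 1 or 2 or wild-type CLP 1, 2 or 3, with an adjusted p of up to 0.134.
Also higher in CLP were Slc9a2, a sodium-proton exchanger of the cell surface, which averaged 2.61 ± 0.152 RPKM in wild-type CLP and 0.674 ± 0.132 RPKM in wild-type MPP4 (1.11, adjusted p = 0.00322), and Slc2a6, which averaged 3.23 ± 0.774 RPKM in wild-type CLP and 1.09 ± 0.199 RPKM in wild-type MPP4 (1.01, adjusted p = 0.00131). With a pseudocount of 0.1 the call of Slc2a6 was lost (adjusted p = 0.0717). Slc44a2, the choline transporter-like protein, averaged 95.8 ± 3.80, 147 ± 10.2 and 158 ± 5.99 RPKM in wild-type HSC, MPP4 and CLP and was called at the first step (adjusted p = 1.68e-05) but not at the second (adjusted p = 0.573).

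Slc25a1, the citrate carrier that supplies the cytosol with carbon for lipid synthesis, stood at 164, 217 and 154 RPKM in wild-type CLP, against 84.1, 76.7 and 91.4 RPKM in wild-type MPP4. Each CLP library exceeded each MPP4 library by more than 60 RPKM, and the log2 difference was 1.06 ± 0.15 (adjusted p = 3.48e-05). Slc25a53, another member of the mitochondrial family, averaged 15.5 ± 4.36 RPKM in wild-type CLP and 5.85 ± 0.757 RPKM in wild-type MPP4 and rose by 1.23. In the opposite direction, Slc25a24, which carries ATP-magnesium against phosphate, averaged 3.65 ± 2.26 RPKM in wild-type CLP and 9.95 ± 1.44 RPKM in wild-type MPP4 (-1.35, adjusted p = 0.00118). Of the 38 mitochondrial carriers 4 rose and 1 fell at this step, after 5 that rose and 8 that fell at the step before.

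The organic cation carrier Slc22a3 was the largest fall, at 9.48, 8.28 and 7.50 RPKM in wild-type CLP, against 31.96, 32.3 and 22.95 RPKM in wild-type MPP4 (-1.66 ± 0.21, adjusted p = 9.02e-06). Slc22a18, an imprinted member of the same family, averaged 0.860 ± 0.317 RPKM in wild-type CLP and 4.19 ± 1.06 RPKM in wild-type MPP4 and also fell (-1.47). Groups did not overlap for either gene. Slc40a1, ferroportin, the iron exporter of the cell surface, averaged 1.01 ± 0.669 RPKM in wild-type CLP and 4.06 ± 0.691 RPKM in wild-type MPP4. Its log2 difference of -1.37 was just inside the threshold (adjusted p = 0.0462) and passed it no longer without wild-type MPP4 1, 2 or 3 or wild-type CLP 1 or 2, or after another scaling between libraries, with adjusted p between 0.00334 and 0.263 over the settings tried. Slc16a11, after its rise in MPP4, stood at 8.75, 6.10 and 8.20 RPKM in wild-type CLP, against 16.9, 15.5 and 14.4 RPKM in wild-type MPP4, lower in each CLP library, with a log2 difference of -0.95 (adjusted p = 0.0216).
That call was lost without wild-type MPP4 1 or 2 or wild-type CLP 2. Slc7a4, a protein related to cationic amino acid carriers, averaged 3.69 ± 0.406 RPKM in wild-type CLP and 7.38 ± 0.533 RPKM in wild-type MPP4 (-0.84, adjusted p = 7.91e-04), a call lost without every library numbered 1 (adjusted p = 0.0551). Slc16a9 and Slc27a6 fell further, to 0.285 ± 0.397 and 0.343 ± 0.202 RPKM in wild-type CLP, against 1.17 ± 0.177 and 1.34 ± 0.315 RPKM in wild-type MPP4. The second fall of Slc16a9 was lost without any 1 of wild-type MPP4 1, 2 and 3 and wild-type CLP 1 and 2, and 13.1% of its exon bases lie in an antisense gene. Leaving out wild-type MPP4 2 brought the count of this step to 19 members, against 30 with all libraries. Erythroid markers, 11 of 13 of which the table holds, summed to 83.8 to 138 RPKM in wild-type CLP, against 171 to 312 RPKM in wild-type MPP4; their part in the fall of Slc40a1, an iron carrier of red cell precursors, was not tested.

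Of 4 fatty acid transport proteins, Slc27a2 and Slc27a6 were called at both steps, Slc27a1 at the second and Slc27a4 at neither. Slc27a1 (FATP1) stood at 18.9, 18.8 and 21.4 RPKM in wild-type HSC, 22.5, 21.3 and 21.1 RPKM in wild-type MPP4 and 62.5, 53.9 and 53.7 RPKM in wild-type CLP. Its log2 difference was 1.35 ± 0.0986 for CLP over MPP4 (adjusted p = 1.33e-08), with CLP above MPP4 in every library, and 0.13 ± 0.0986 for MPP4 over HSC, which was not called (adjusted p = 0.316). Slc27a2 (FATP2), which activates very long-chain fatty acids as well, stood at 1.42, 0.625 and 0.590 RPKM in wild-type HSC, 7.07, 14.2 and 13.7 RPKM in wild-type MPP4 and 18.3, 35.4 and 37.2 RPKM in wild-type CLP.
It rose at each step, by 2.73 and 1.30 on the log2 scale, although its libraries numbered 1 were the lowest in wild-type MPP4 and CLP. An exon overlap of 14.4% links it with the gene Gm26697. The second rise was no longer called without wild-type MPP4 1 or wild-type CLP 2 or 3. Slc27a6 (FATP6), known from the heart, ran the other way, with 13.9, 13.3 and 14.9 RPKM in wild-type HSC, 1.14, 1.18 and 1.71 RPKM in wild-type MPP4 and 0.239, 0.214 and 0.576 RPKM in wild-type CLP. Slc27a4 (FATP4), the remaining member of the family that passed the level rule, averaged 6.25 ± 1.81, 4.20 ± 1.15 and 4.46 ± 0.271 RPKM in wild-type HSC, MPP4 and CLP, and neither step was called. Summed, the 8 fatty acid, choline and bile acid carriers reached 174 ± 1.57, 224 ± 6.53 and 288 ± 8.83 RPKM in wild-type HSC, MPP4 and CLP. The 4 Slc27 members alone summed to 40.8, 38.8 and 91.8 RPKM in the same order. Their sum was thus not higher in wild-type MPP4 than in HSC. The 2 Slc44 members, mostly the choline transporter-like Slc44a2, summed to 102, 152 and 164 RPKM, and the 2 Slc10 members to 30.7, 32.9 and 32.4 RPKM.

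**Figure D3:**
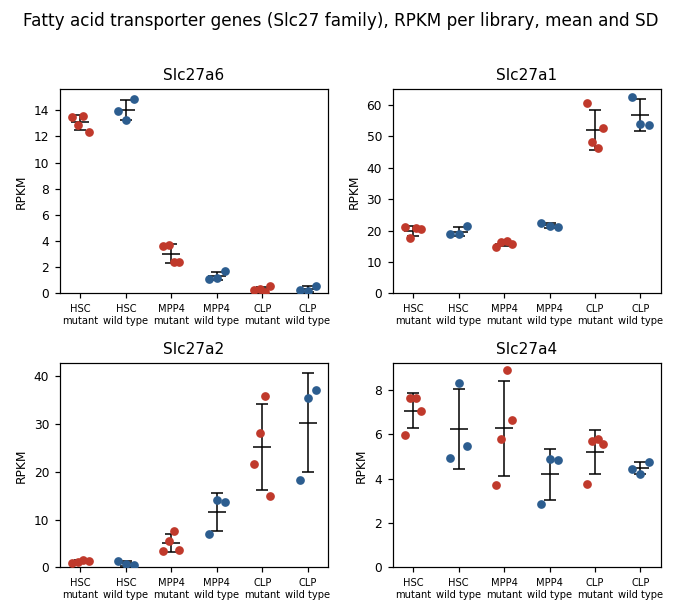
RPKM (vertical axes, from 0) of the 4 members of the Slc27 family in each library of mutant (red) and wild-type (blue) HSC, MPP4 and CLP, with mean and SD. Slc27a6 stands at 12.4 to 14.9 RPKM in HSC and is higher in mutant than in wild-type MPP4, while Slc27a1 and Slc27a2 are highest in CLP and lower on average in mutant than in wild-type MPP4.

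Between the ends, CLP over HSC in wild-type mice called 92 members, 38 higher and 54 lower, where 51.1% of tested genes were called, 19.4% higher and 31.7% lower (limma, Benjamini-Hochberg). Slc14a1, the urea carrier of red cells, averaged 31.99 ± 7.09, 22.8 ± 3.20 and 36.6 ± 6.72 RPKM in wild-type HSC, MPP4 and CLP, called lower at the first step (adjusted p = 0.04998) and higher at the second (adjusted p = 0.0187), the first barely inside the threshold. Slc15a4, a lysosomal histidine and peptide carrier of endosomal Toll-like receptor signalling, averaged 15.5 ± 4.40, 20.2 ± 3.90 and 28.9 ± 7.87 RPKM and was not called at either step. Slc25a20, the carnitine-acylcarnitine carrier of fatty acid oxidation, averaged 35.3 ± 0.511, 25.9 ± 2.72 and 23.3 ± 5.09 RPKM and fell at the first step (adjusted p = 0.0436).
Slc16a1, the lactate carrier MCT1, averaged 25.8 ± 9.02, 25.998 ± 1.23 and 23.9 ± 4.06 RPKM in the same order and was called at neither step. Slc16a3, the lactate exporter MCT4, stayed between 1.42 and 3.16 RPKM on average in wild-type mice and was called at neither step. Slc25a37, mitoferrin, which brings iron into mitochondria for haem synthesis, averaged 10.8 ± 1.70, 11.7 ± 2.21 and 16.2 ± 2.04 RPKM. Slc25a38, the glycine carrier of the same pathway, averaged 12.7 ± 2.44, 13.5 ± 1.67 and 14.5 ± 1.46 RPKM, and neither was called at either step. Slc35a1, the carrier of CMP-sialic acid into the Golgi, averaged 29.7 ± 3.39, 23.1 ± 2.96 and 20.6 ± 0.361 RPKM.

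The same steps were read in mutant mice, which share no library with the wild-type ones. Mutant MPP4 over HSC called 75 members, 31 higher and 44 lower, where 39.1% of tested genes were called, 16% higher and 23.1% lower. Mutant CLP over MPP4 called 60, 24 higher and 36 lower, where 24.3% were called, 7.86% higher and 16.4% lower (limma, Benjamini-Hochberg). At the first step 61 members were called in the same direction in both genotypes, which is 81.3% of the mutant and 80.3% of the wild-type calls. At the second step 27 were, 45% of the mutant and 90% of the wild-type calls. No member was called in opposite directions at either step. Mutant groups have 4 libraries and wild-type groups 3, so the counts themselves are not a comparison of the genotypes; that comparison is the difference between mutant effects. Mutant CLP over HSC called 110 members, where 57.8% of tested genes were called, and 84 of these 110 members were called the same way in wild-type mice. Shared calls were not counted over all tested genes, so none of these shares sets the members apart from other genes.

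Slc16a11, Slc9a9 and Slc48a1 were among the shared calls of the first step. In mutant mice Slc16a11 stood at 21.2, 21.6, 29.3 and 33.04 RPKM in mutant MPP4, against 0.978, 0.676, 0.587 and 0.833 RPKM in mutant HSC, with no overlap (log2 difference 3.93, adjusted p = 4.96e-11). Slc9a9 stood at 12.8, 14.3, 17.8 and 13.6 RPKM in mutant MPP4, against 1.48, 1.47, 2.51 and 2.20 RPKM in mutant HSC (2.43). Slc48a1 stood at 59.3, 58.7, 54.4 and 60.1 RPKM in mutant MPP4, against 149.9, 134, 139 and 146 RPKM in mutant HSC (-1.28). In each of these the groups were apart, as in wild-type mice. Slc17a8, the vesicular glutamate transporter VGLUT3, was called in mutant mice at this step, with 0.501 ± 0.348 RPKM in mutant MPP4 and 3.57 ± 2.05 RPKM in mutant HSC (-1.53, adjusted p = 1.45e-04), and not in wild-type mice, with 0.434 ± 0.350 RPKM in wild-type MPP4 and 1.27 ± 0.369 RPKM in wild-type HSC (adjusted p = 0.0944).

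At the second step, Slc37a2 stood at 8.39, 9.32, 10.5 and 7.71 RPKM in mutant CLP, against 0.566, 1.77, 3.01 and 1.29 RPKM in mutant MPP4 (1.98, adjusted p = 2.17e-06) and Slc27a2 at 21.6, 28.1, 35.98 and 15.03 RPKM in mutant CLP, against 3.46, 5.49, 7.69 and 3.74 RPKM in mutant MPP4 (2.09, adjusted p = 1.01e-05). CLP libraries lay above MPP4 libraries for both. Slc25a30, a mitochondrial carrier of the uncoupling protein group, was called lower in mutant mice, with 1.46, 2.18, 1.70 and 2.58 RPKM in mutant CLP, against 5.64, 3.88, 4.49 and 4.07 RPKM in mutant MPP4 (-0.89, adjusted p = 4.51e-05). In wild-type mice it was not called and its values leaned the other way, with 3.67, 4.48 and 3.52 RPKM in wild-type CLP, against 3.65, 2.58 and 2.58 RPKM in wild-type MPP4 (0.32, adjusted p = 0.222). The class of organic ion, amine, urea and other carriers had 6 of 13 members lower and 2 higher in mutant mice, a median of -0.42, against -0.06 over all tested genes.

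**Figure D4:**
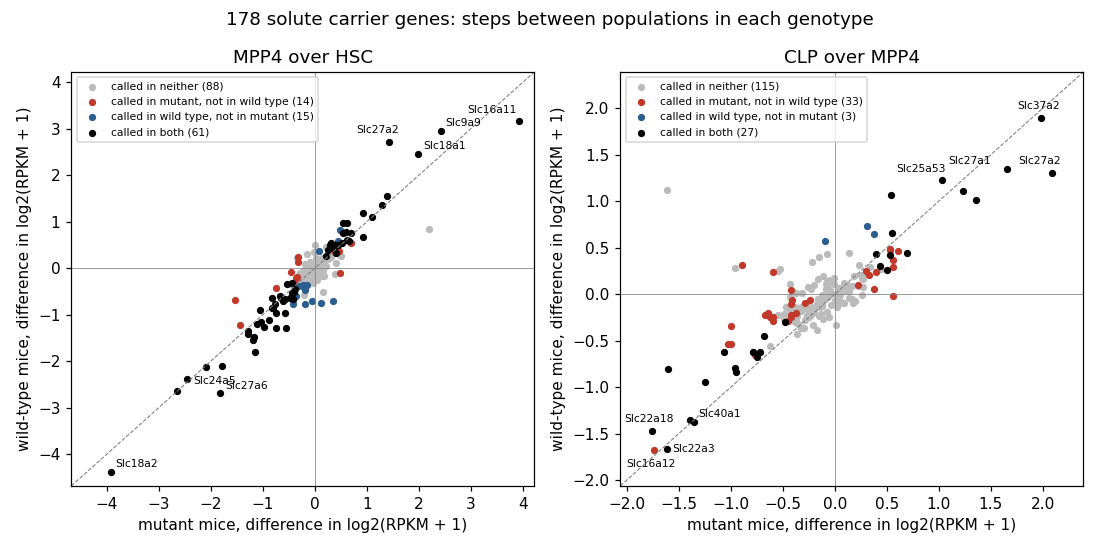
Difference in log2(RPKM + 1) between populations in mutant (horizontal) and wild-type (vertical) mice for 178 members, MPP4 over HSC at left and CLP over MPP4 at right; colours give in which genotype limma called the member, and the dashed line marks equal differences. At left 61 members are called in both genotypes, from Slc18a2 at the lower end to Slc16a11 at the upper end, and at right 27 are.

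Mutant and wild-type cells of the same population were then compared. In MPP4, 1 of 178 members was called, where 0.217% of tested genes were, and 23 had an unadjusted p under 0.05, where 8.14% of tested genes did (limma, Benjamini-Hochberg). Slc27a6, the heart-type fatty acid transport protein, was that member. It stood at 3.67, 3.72, 2.38 and 2.43 RPKM in mutant MPP4, against 1.14, 1.18 and 1.71 RPKM in wild-type MPP4. Every mutant library was above every wild-type library, with a log2 difference of 0.78 ± 0.15 (adjusted p = 0.0364). The call was lost under 13 of 21 other settings, among them the replicate block by number (adjusted p = 0.0546), pseudocounts of 0.1 and 0.5 and the omission of any wild-type MPP4 library or of mutant MPP4 1 or 2, with adjusted p between 0.0293 and 0.423, while the difference stayed between 0.65 and 1.12. Its mutant minus wild-type difference was -0.09 in HSC and -0.02 in CLP, where it averaged 0.324 ± 0.199 RPKM in mutant CLP and 0.343 ± 0.202 RPKM in wild-type CLP.

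The next members of MPP4 by unadjusted p did not pass the threshold. Slc27a1 stood at 14.8, 16.2, 16.6 and 15.6 RPKM in mutant MPP4, against 22.5, 21.3 and 21.1 RPKM in wild-type MPP4, lower in each mutant library (-0.43 ± 0.0922, adjusted p = 0.0561). With sex and age as terms it was called (adjusted p = 0.0347). Slc2a3 stood at 23.4, 17.5, 19.5 and 18.2 RPKM in mutant MPP4, against 14.03, 14.1 and 11.4 RPKM in wild-type MPP4, higher in each mutant library (0.54, adjusted p = 0.111). Slc27a2 stood at 3.46, 5.49, 7.69 and 3.74 RPKM in mutant MPP4, against 7.07, 14.2 and 13.7 RPKM in wild-type MPP4, and mutant 3 lay above wild type 1 (-1.05, adjusted p = 0.219). Slc6a9, a glycine transporter, averaged 2.10 ± 1.04 RPKM in mutant MPP4 and 0.586 ± 0.269 RPKM in wild-type MPP4 (0.92, adjusted p = 0.219), and its exons share 38.8% of their bases with Ccdc24. Slc43a3, a purine nucleobase carrier, averaged 25.4 ± 2.84 RPKM in mutant MPP4 and 30.6 ± 1.38 RPKM in wild-type MPP4 (-0.26, adjusted p = 0.227).
Without regard to the threshold, 25 members had mutant and wild-type MPP4 libraries that did not overlap, where 10.1% of tested genes did. Of these, 17 were higher and 8 lower in mutant mice, against 6.68% and 3.41% of tested genes.

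Marker levels of these MPP4 libraries differed alongside. Stem cell markers, all 7 of which the table holds, summed to 93.9 to 107 RPKM in mutant MPP4, against 40.8 to 61.0 RPKM in wild-type MPP4. Early lymphoid markers, 6 of 6 in the table, summed to 945 to 1083 RPKM in mutant MPP4, against 1219 to 1573 RPKM in wild-type MPP4, and neither list overlapped between genotypes. Slc27a6 and Slc2a3 were highest in HSC and Slc27a1 and Slc27a2 highest in CLP, in both genotypes. The part of these markers in the differences of the 4 carriers was not tested.

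Slc4a1, the anion exchanger known as band 3 of red cells, varied widely between libraries of 1 group. It stood at 14.6, 39.1, 19.4 and 44.02 RPKM in mutant MPP4, against 15.5, 1.68 and 0.903 RPKM in wild-type MPP4, at 0.424, 37.98, 16.1 and 0.355 RPKM in mutant HSC, against 0.0990, 10.4 and 0.163 RPKM in wild-type HSC, and at 0.108, 13.1, 10.8 and 35.4 RPKM in mutant CLP, against 9.61, 5.51 and 11.4 RPKM in wild-type CLP. Mutant HSC ran from under 1 to nearly 38 RPKM, and no comparison of genotypes called it (adjusted p = 0.567 in MPP4, log2 difference 2.65 ± 1.19). Erythroid markers in the same libraries summed to 383 to 544 RPKM in mutant MPP4, against 171 to 312 RPKM in wild-type MPP4, and none of the 11 was at 0 in any MPP4 library. Their part in the level of Slc4a1 was not tested.

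In HSC, 0 of 178 members were called by limma, where 0.0522% of tested genes were, and 14 had an unadjusted p under 0.05, where 4.45% of tested genes did. The smallest p belonged to Slc37a3, at 1.76, 1.70, 1.69 and 2.40 RPKM in mutant HSC, against 1.11, 0.377 and 0.582 RPKM in wild-type HSC (0.79 ± 0.20, adjusted p = 0.358). Mutant libraries were all above wild-type ones. Slc52a3 stood at 2.50, 3.09, 3.18 and 2.83 RPKM in mutant HSC, against 5.50, 4.59 and 6.29 RPKM in wild-type HSC, and Slc6a13, a GABA and taurine transporter, at 2.62, 1.37, 2.01 and 2.98 RPKM in mutant HSC, against 4.55, 4.44 and 4.62 RPKM in wild-type HSC. Both were lower in every mutant library, with adjusted p = 0.437 and 0.447; after quantile normalization Slc6a13 was called (adjusted p = 0.0425). Slc17a8 averaged 3.57 ± 2.05 RPKM in mutant HSC and 1.27 ± 0.369 RPKM in wild-type HSC, Slc25a51, the mitochondrial NAD carrier, 20.6 ± 0.397 RPKM in mutant HSC and 17.5 ± 0.768 RPKM in wild-type HSC, and Slc25a35, a mitochondrial carrier, 6.46 ± 0.566 RPKM in mutant HSC and 4.33 ± 0.634 RPKM in wild-type HSC.
The adjusted p of these 3 was 0.818, 0.818 and 0.860 by limma with Benjamini-Hochberg adjustment, and in each the mutant libraries lay above the wild-type ones. In all, 11 members had HSC libraries that did not overlap between genotypes, where 5.25% of tested genes did. The exons of Slc25a35 share 22.3% of their bases with Rangrf.

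In CLP, limma called 0 of 178 members, as it called 0% of tested genes, and 5 members had an unadjusted p under 0.05, where 4.41% of tested genes did. Slc25a30 had the smallest p, at 1.46, 2.18, 1.70 and 2.58 RPKM in mutant CLP, against 3.67, 4.48 and 3.52 RPKM in wild-type CLP, lower in each mutant library (-0.72 ± 0.15, adjusted p = 0.313). Slc25a1 averaged 128 ± 27.3 RPKM in mutant CLP and 178 ± 34.3 RPKM in wild-type CLP, and the groups overlapped (-0.49, adjusted p = 0.839). Slc17a9, the vesicular nucleotide transporter, averaged 13.5 ± 3.23 RPKM in mutant CLP and 20.2 ± 2.80 RPKM in wild-type CLP (-0.57, adjusted p = 0.839).
Slc22a3 and Slc2a3 lay higher in every mutant CLP library, with 13.6 ± 1.97 RPKM in mutant CLP and 8.42 ± 0.995 RPKM in wild-type CLP for Slc22a3 and 10.98 ± 1.77 RPKM in mutant CLP and 8.21 ± 0.323 RPKM in wild-type CLP for Slc2a3, and an adjusted p of 0.934 each. Slc16a7, a monocarboxylate carrier, averaged 9.07 ± 1.40 RPKM in mutant CLP and 7.12 ± 1.43 RPKM in wild-type CLP (0.31). In all, 7 members had CLP libraries that did not overlap between genotypes, where 4.12% of tested genes did.

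**Figure D5:**
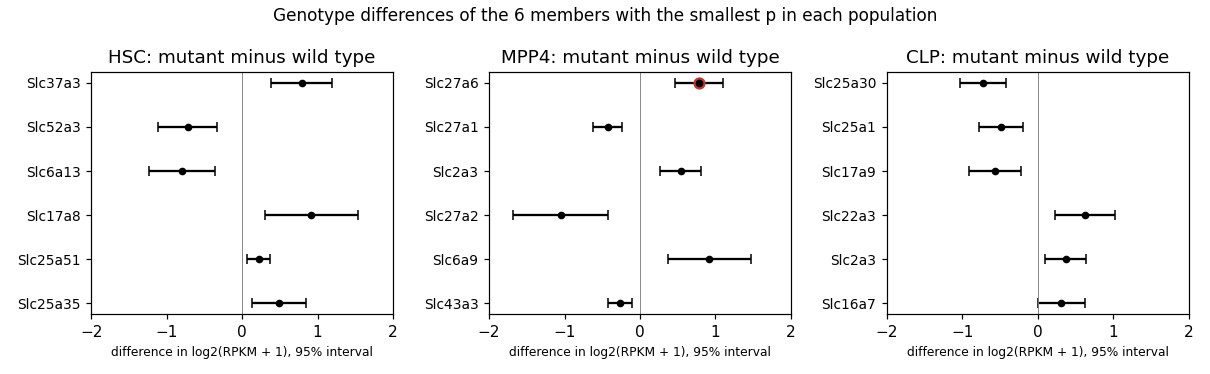
Mutant minus wild-type difference in log2(RPKM + 1), with its 95% interval from limma, for the 6 members with the smallest unadjusted p in HSC, MPP4 and CLP. Slc27a6 in MPP4, marked by a red dot, is the member that passed the adjusted threshold, and its interval lies above 0.

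Whether the mutant effect differed between populations was tested as the difference of the mutant minus wild-type differences. No member was called by limma for MPP4 minus HSC, CLP minus MPP4 or CLP minus HSC, where 0%, 0% and 0.0087% of tested genes were. At an unadjusted p under 0.05 there were 17, 15 and 10 members, against 3.79%, 3.84% and 3.65% of tested genes. Slc25a30 came nearest, at -1.21 ± 0.21 for CLP minus MPP4 (adjusted p = 0.0836). It was higher in mutant MPP4, with 4.52 ± 0.790 RPKM in mutant MPP4 and 2.94 ± 0.614 RPKM in wild-type MPP4, and lower in mutant CLP, with 1.98 ± 0.499 RPKM in mutant CLP and 3.89 ± 0.517 RPKM in wild-type CLP, and neither pair of groups overlapped. It passed the threshold without wild-type MPP4 1 (adjusted p = 0.0315) or mutant CLP 4 (0.0440). It also did with genotype and replicate number together as a random block (0.0235). The difference for Slc27a6 was 0.87 for MPP4 minus HSC (adjusted p = 0.528), so that its call in MPP4 was not shown to differ from HSC.

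Other transport genes of the table, read with the same fit, moved as follows in wild-type mice. Of 34 genes with an Abc symbol, not all of them membrane pumps, 3 rose and 12 fell from HSC to MPP4, and 0 rose and 6 fell from MPP4 to CLP. Abcf2 and Abcf3, which are not pumps, were among the rises and the falls of the first step. Of all tested genes, 16.1% rose and 23.3% fell at the first step, and 4.77% rose and 8.38% fell at the second. Abcg2, the efflux pump that marks the side population of stem cells, fell by 1.72 and 0.78 on the log2 scale. Of 12 Mfsd genes 0 rose and 4 fell at the first step, and all 3 aquaporins fell there. Of 8 partners of carriers, Emb, the chaperone of lactate carriers, rose by 2.96 at the first step and fell by 0.50 at the second, and Tfrc, the transferrin receptor that brings in iron, rose by 1.13 and then by 1.62. Steap3, an iron reductase, rose by 0.49 at the first step and Ftl1, the ferritin light chain, fell by 0.48 there. No other partner was called at either step. None of these genes is a member.

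Slc16a12, a creatine carrier of the monocarboxylate family, was picked out after its values were seen because it followed the sex of the mice. In HSC it stood at 3.56 and 3.58 RPKM in the 2 libraries of male mice, against 9.47 to 18.1 RPKM in the 5 of female mice. In MPP4 it stood at 0.686 and 0.954 RPKM in male libraries, against 3.83 to 5.77 RPKM in female libraries, and in CLP at 0 and 0.108 RPKM against 0.170 to 0.788 RPKM. Male and female libraries did not overlap in any population. No test is given, since the gene was picked for this pattern. All male libraries carry replicate number 2 and no female library does, so sex and whatever else that number marks cannot be told apart. They may also come from only 2 mice, 1 mutant and 1 wild type.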

How the data were processed

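RNA of sorted bone marrow cells was measured in 21 libraries. Per the labels' protocols, polyadenylated RNA was made into cDNA with a SMART-seq kit, which does not mark strand, and libraries with NexteraXT. The authors deposited RPKM for 11628 genes, and reads were aligned with STAR to mm10, per the submitters' processing notes; no source used here gives the counting tool, the annotation or any scaling. Whole reads were not recovered, so depth is unknown. RPKM summed to 337818 to 376135 per library, and libraries of 1 group correlated at 0.968 to 0.990.

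Values were analysed as log2(RPKM + 1), which understates changes of low genes. The 11496 genes at 1 RPKM in 3 or more libraries entered a single fit in limma 3.58.1 under R 4.3.3, with 6 group means, a variance trend, and 15 residual and 4.62 prior degrees of freedom. Tests were two-sided, with a call at a Benjamini-Hochberg adjusted p under 0.05 over all tested genes. The fit was tested on simulated data. Tables and plots were made with Python 3.11.15, pandas 2.3.3 and matplotlib 3.10.9. All 178 Entrez identifiers matched RefSeq, and exon overlaps were read from GENCODE M21.

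The members and lists were chosen with earlier results of these data known. Named were members called between genotypes, the 6 smallest p per genotype comparison, the 8 largest rises and falls of each wild-type step, the 10 highest, the highest of each class, a list of known roles, and members at the level threshold; Slc27a4 and Slc16a12 were named after their values were seen. A member that the rule names is not reported here.

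Replicate numbers were checked as a pairing. Deviations from group means of same-numbered libraries of different genotypes correlated at -0.15 to 0.45 over genes (5 of 9 pairs over 0.1). The 3 pairs numbered 2 correlated at 0.433, 0.214 and 0.453 in HSC, MPP4 and CLP, and numbers 1 to 3 carry the same sex and age labels in both genotypes. Across populations of 1 genotype they correlated at 0.094 to 0.481 (19 of 21 over 0.1). Mutant libraries numbered 4 are labelled 10 weeks in CLP and 12 weeks elsewhere. The main fit is the plain design of group means without a block, although most pairs across populations were over 0.1. The block is given as an alternative.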

Additional observations from a re-analysis of the deposited data

Results flagged for a closer look

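In 207 groups of 4 mutant libraries of the 69 named members, 12 (5.80%) held a library whose gap to the others was past Dixon's 95% limit, where chance gives about 1 in 20. Mutant HSC held 6 of them by library: Slc37a3 at 2.40 RPKM in library 4, against 1.69 to 1.76 RPKM in the others, Slc25a37 at 14.2 RPKM and Slc2a6 at 0.122 RPKM in library 2, Slc39a10 at 21.1 RPKM in library 3, Slc7a11 at 1.11 RPKM in library 4 and Slc9a2 at 0.164 RPKM in library 1, the last lower than the others and the rest higher. In mutant MPP4, Slc39a10 was again highest in library 3, at 22.9 RPKM against 16.6 to 16.997 RPKM, and Slc6a6 in library 1, at 36.02 RPKM against 24.8 to 25.9 RPKM. In mutant CLP, Slc16a3 was high in library 4 at 4.33 RPKM, against 1.31 to 1.55 RPKM, and Slc28a2 low there at 19.6 RPKM. Library 1 of mutant CLP was low for Slc25a20, at 13.8 RPKM against 21.2 to 22.95 RPKM, and for Slc6a9, at 0.326 RPKM. None of the 12 values belongs to a member that was called between genotypes.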

How the results depend on the processing

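Of 50 named log2 differences, 40 kept their direction and their side of the threshold under every setting, 8 lost their call under at least 1, 2 gained 1, and none reversed. The count of members called between mutant and wild-type MPP4 was 1. It was 0 with a pseudocount of 0.1 or 0.5, after quantile normalization, with the fit limited to the groups compared and, added after seeing the data, without every library numbered 1, 2 or 3, and 2 with sex and age as terms; without single libraries it ranged from 0 to 1. Between mutant and wild-type HSC it was 0, and 1 after quantile normalization. With the replicate block by number it was 0 in MPP4. With a random replicate block of genotype and number together (correlation 0.210), the difference CLP minus MPP4 had 1 call in place of 0. Whether a number marks a mouse is not known. That difference also had 1 call without wild-type MPP4 1 or mutant CLP 4 (range 0 to 1). The block moved no other count by more than 1.5 times. For wild-type CLP over MPP4 the count of 30 ranged from 19 to 27 without single libraries, and was 17, 17, 18 and 29 without every library numbered 1, 2, 3 and 4, which leaves fewer samples; the cause of the other changes was not tested. Counts of the other steps stayed within 1.5 times. Depth is unknown, so no limit from counting can be given, and members under 1 RPKM are compressed by the pseudocount.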
